A study of Homo sapiens with 32 samples.

Results

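The canonical histone genes were followed in 2 human lung cancer cell lines, H1299 and A549, in which the chromatin remodeller ATPase SMARCA2 had been lowered by a short hairpin RNA. Members were taken by name: every gene whose current symbol starts with H1-, H2AC, H2BC, H3C or H4C and then a number. The rule found 93 genes, of which 74 are annotated as protein-coding, 17 as pseudogenes (3 of them transcribed) and 2 as antisense long non-coding RNAs. On the Affymetrix HG-U133 Plus 2.0 array 50 of them had a probe set that names 1 gene, and 30 of these were bright enough to be tested, among 14695 genes tested of 19775 with such a probe set. A further 20 were too dim, 19 were read only by probe sets that name several genes, and 24 had no listed probe set. By family, 8 of 15 H1 genes, 7 of 22 H2A, 8 of 25 H2B, 3 of 15 H3 and 4 of 16 H4 genes were tested. They included 1 pseudogene, H2AC5P, and 1 antisense RNA, H1-10-AS1.

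Most of these genes encode the histones that are made in S phase to package newly copied DNA. They lie in clusters, the largest on chromosome 6, and many are near-identical copies. Their mRNAs are the only common animal mRNAs that end in a stem-loop in place of a poly(A) tail, and the stem-loop binding protein and a dedicated cleavage complex form that end. A smaller share of transcripts from several of the genes is polyadenylated, mostly when cells leave the cycle or differentiate. Labelling used a 3′ in vitro transcription kit, a kind that by standard practice starts from poly(A), so the tailed share weighs most in these signals; tailed and stem-loop transcripts cannot be told apart here. The name rule also took in H1-10, a replacement linker histone gene that lies outside the clusters and is known for polyadenylated transcripts made through the cell cycle.

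The 32 arrays fall into 16 groups. Every cell carried a hairpin, either shLuc against luciferase (control) or S2sh7 against SMARCA2, and a cDNA. In H1299 the cDNA was GFP, wild-type SMARCA2 (WT), a bromodomain mutant (BRD) or an ATPase dead mutant (ATPdead); in A549 the last 3 were forms of SMARCA4. H1299 is labelled Batch1 and has 3 arrays per group, labelled biological replicates; A549 is labelled Batch2 and has 1 array per group, so line and batch cannot be told apart. The lines are described as isogenic stable lines, untreated, grown in RPMI with 10% serum. The labels do not say whether replicates were separate cultures or clones, so p-values measure the spread between these samples only, which may be technical. S2sh7 against shLuc asks what the SMARCA2 hairpin does, and the cDNAs ask whether an intact or mutant ATPase subunit alters that.

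SMARCA2 intensity lay between 72.6 and 93.4 on the 12 H1299 shLuc arrays and between 28.1 and 42.0 on the 12 S2sh7 arrays. In A549 it was 318 to 396 with shLuc and 35.1 to 49.6 with S2sh7, without overlap in either line. Of 5 SMARCA2 probe sets 4 fell in each line and 1 did not (-0.11 in H1299 with GFP, adjusted p = 0.5208, limma). SMARCA4 also fell in the H1299 knockdowns, by differences of -0.60 with GFP, -0.33 with WT, -0.30 with BRD and -0.37 with ATPdead, each called; its part in the histone changes was not tested. The SMARCA2 cDNAs of H1299 were not seen on the probe set that gave the SMARCA2 intensities above. On 2 of the 5 every cDNA array was above every GFP array under either hairpin. The group means were higher by 1.18 to 1.61 log2 on 1 of them and 0.41 to 0.64 on the other. On the probe set that did not fall, this held for WT and BRD under S2sh7 only, each by 0.27. Of 7 SMARCA4 probe sets, 2 were higher on all A549 arrays with a SMARCA4 cDNA than on both GFP arrays, 1 of them by a mean of 2.47 log2. Array medians were 26.4 to 27.3 in H1299 and 40.1 to 41.2 in A549. Replicate arrays of H1299 correlated at 0.9976 to 0.9988 across the genes tested. Keratins 8 and 18 and vimentin were read on every array, EPCAM, CDH1 and KRT19 were over the log2 minimum of 5 on no H1299 array, and the leukocyte marker PTPRC and the endothelial markers CDH5 and KDR were over it on none of the 32; Other markers of those types were over it: CD3E (means of 5.20 in H1299 and 6.04 in A549) and PECAM1 (5.46 and 6.38) in both lines, and CD14 (6.26) and VWF (5.26) in A549 only. Of the fibroblast markers, COL1A1 (6.89 and 8.37) was over it on all 32 arrays and DCN (5.15 and 5.80) on 22 of 24 in H1299 and 8 of 8 in A549, while PDGFRA was over it on none.

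In the S2sh7 knockdown of H1299 some histone genes rose and others fell. With GFP, 6 of the 30 genes rose and 7 fell (limma, adjusted p under 0.05), which is 43.3% called, beside 29.7% of all genes tested; the median difference was -0.08 log2 against 0.01 over all genes. All 5 H2B genes called rose, out of 8, and all 3 H1 genes called fell, out of 8. H2A genes went both ways, with 1 of 7 higher and 3 lower. Of the 4 H4 genes 1 was lower, and none of the 3 H3 genes read on their own was called. The median difference was 0.26 log2 in H2B, -0.09 in H1, -0.13 in H2A, -0.09 in H3 and -0.10 in H4; families were not tested against each other.

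Of the 30 genes, 6 were below the log2 minimum of 5 (an intensity of 32) on every H1299 array and entered the tests only through A549: H1-10-AS1, H1-6, H2AC5P, H2BC15, H3C3 and H3C6. Their differences in H1299 lie under the minimum, so a missing call there says little. H1-5 and H2AC8 were below it on every A549 array. With the minimum applied within H1299, an alternative chosen after seeing the data, 24 members were tested and 13, 11, 12 and 13 called with GFP, WT, BRD and ATPdead (54.2%, 45.8%, 50.0% and 54.2%), beside 35.5%, 32.3%, 28.6% and 34.3% of all genes.

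The counts in the 3 cDNA-expressing H1299 pairs were of similar size. With WT, 7 genes rose and 4 fell (36.7% called, background 26.5%). With BRD, 6 rose and 5 fell (36.7%, background 23.7%), and with ATPdead 8 rose and 5 fell (43.3%, background 28.4%). Each of these 4 comparisons used its own 6 arrays for its values, and the fit shared 1 estimate of the spread. Counted gene by gene, H2BC12, H2BC12L, H2BC6 and H2BC9 rose in all 4 knockdowns, and H1-4, H1-5, H2AC6 and H2AC14 fell in all 4. Over all genes, 890 (6.06%) rose in all 4 and 1001 (6.81%) fell in all 4. There were 13 tested members that were called in none of the 4, among them all 3 H3 genes. Without probe sets of the suffix _x_at or _s_at, which mark probes that can match several transcripts, 20 members were tested and the called counts were 7, 5, 5 and 7. These are 35.0%, 25.0%, 25.0% and 35.0%, beside 26.7%, 22.7%, 21.0% and 25.3% of all genes under that filter, so with WT and BRD the share was near the background.

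**Figure D1:**
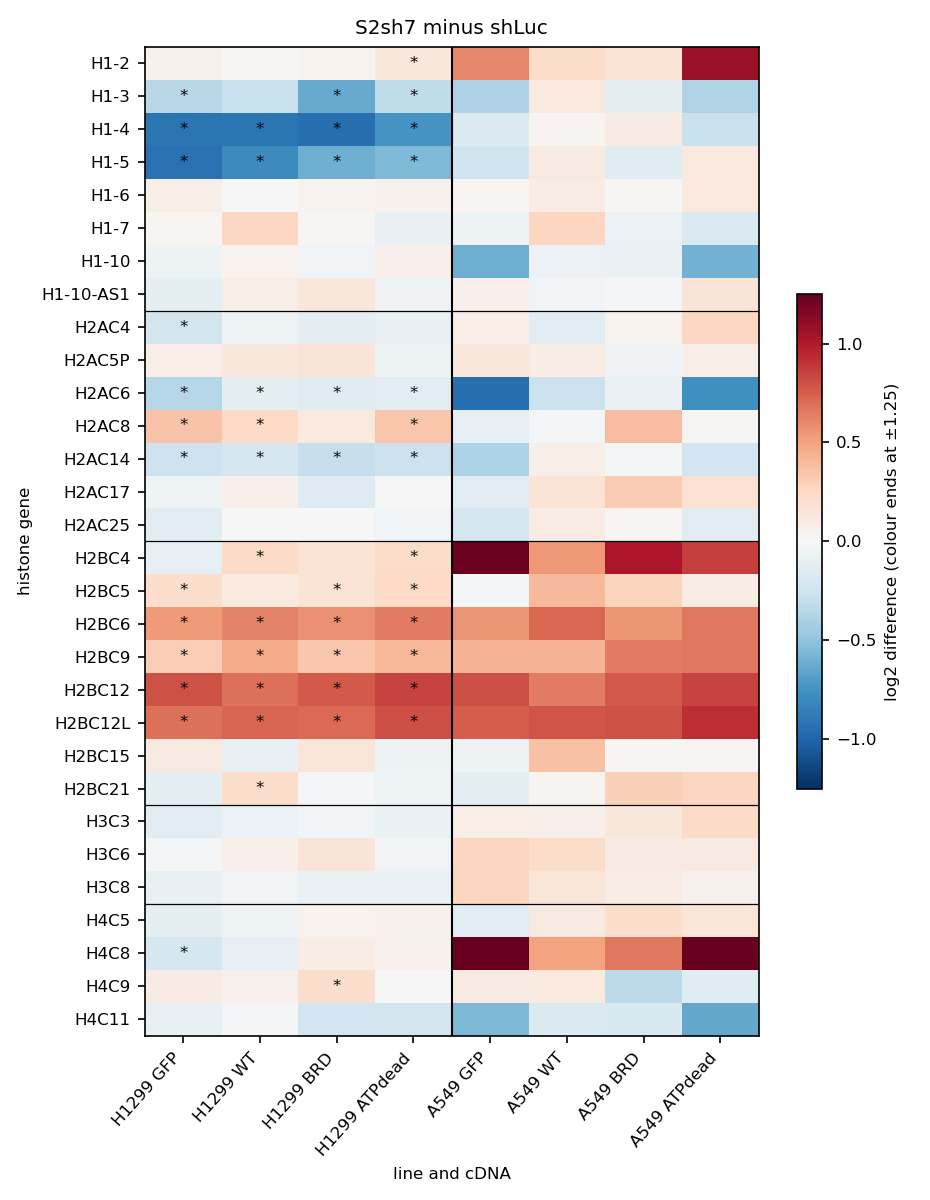
Log2 difference of S2sh7 minus shLuc for the 30 tested genes (rows, grouped by family) in the 4 H1299 pairs (means of 3 arrays a group) and the 4 A549 pairs (1 array a group); red is higher with S2sh7, blue is lower, and asterisks mark limma adjusted p under 0.05 in H1299 (pairs in A549 were not tested singly). H2BC12, H2BC12L, H2BC6 and H2BC9 are red in all 8 columns, and the deep blue of H1-4 and H1-5 is seen in the H1299 columns.

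H2B genes. H2BC12, which encodes a core histone H2B, is one of the H2B genes with known polyadenylated transcripts. Its promoter and that of H2BC6 are shown because both genes rose in all 4 H1299 knockdowns and in A549. The windows are from RefSeq (GRCh38.p14), 300 bases each, mostly before the transcript start, 5′ to 3′ along the gene: H2BC12 at chr6:27146809-27147108 on the minus strand and H2BC6 at chr6:26183511-26183810 on the plus strand. Capitals mark every match, on either strand, to the octamer ATTTGCAT, to CCAAT and to TATAAA, the core elements known from histone promoters; matches of different motifs are marked alike.
H2BC12: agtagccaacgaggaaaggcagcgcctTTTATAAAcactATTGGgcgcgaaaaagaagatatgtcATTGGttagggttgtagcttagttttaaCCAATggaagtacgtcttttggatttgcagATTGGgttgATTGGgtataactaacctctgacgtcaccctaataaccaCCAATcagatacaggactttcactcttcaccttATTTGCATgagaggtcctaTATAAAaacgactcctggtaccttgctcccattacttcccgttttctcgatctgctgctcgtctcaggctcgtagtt
H2BC6: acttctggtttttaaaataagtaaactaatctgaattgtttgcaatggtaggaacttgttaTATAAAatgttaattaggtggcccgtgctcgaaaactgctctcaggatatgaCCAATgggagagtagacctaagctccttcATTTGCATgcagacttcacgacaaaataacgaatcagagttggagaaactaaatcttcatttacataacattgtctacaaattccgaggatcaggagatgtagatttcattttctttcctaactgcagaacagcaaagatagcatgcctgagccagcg
H2BC12 holds 1 octamer, 6 CCAAT and 3 TATAAA matches and H2BC6 holds 1 of each.

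H2BC12 read 1780, 1775 and 1764 on the H1299 shLuc GFP arrays and 3071, 3042 and 3127 with S2sh7. With WT it went from 1719, 1659 and 1694 to 2711, 2735 and 2750, and with BRD from 1684, 1723 and 1708 to 2800, 3021 and 2858. With ATPdead it went from 1746, 1776 and 1768 to 3174, 2999 and 3324. Every S2sh7 array was thus above every shLuc array of the line. The log2 difference was 0.80 with GFP (SE 0.03, 1.74-fold, limma adjusted p = 5.382e-13), 0.69 with WT, 0.76 with BRD and 0.84 with ATPdead.

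H2BC6 read 284, 262 and 272 with shLuc GFP and 405, 381 and 395 with S2sh7 GFP, a rise of 0.53 log2 (SE 0.05, adjusted p = 4.551e-08, limma); over the other H1299 groups it lay between 242 and 277 with shLuc and between 358 and 425 with S2sh7. H2BC12L, a gene with an H2B-like product that lies outside the main clusters, read 679, 639 and 655 with shLuc GFP and 1067, 1042 and 1062 with S2sh7 GFP. Its differences were 0.69, 0.72, 0.70 and 0.80 log2 with GFP, WT, BRD and ATPdead. H2BC9 read 335, 316 and 323 with shLuc GFP and 366, 438 and 402 with S2sh7 GFP, and rose by 0.30, 0.46, 0.34 and 0.41 log2. In none of these 3 genes did the arrays of a pair overlap. Such separation was common among all 14695 genes tested: 42.1% with GFP, 40% with WT, 36.9% with BRD and 41% with ATPdead. Among the tested members it was seen in 17, 17, 14 and 15, in the same order. Where arrays of an H1299 pair are said not to overlap, here and below, these shares are the background. H2BC5 rose by 0.22, 0.17 and 0.25 log2 with GFP, BRD and ATPdead, and its difference with WT was 0.12, not called. Its second probe set rose with BRD (0.22) and ATPdead (0.28). That probe set was not called with GFP (0.14, limma adjusted p = 0.1485) or WT (0.19).

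The probe sets of H2BC12L, H2BC5, H2BC6 and H2BC9 carry the suffix _x_at, so their signal can hold RNA of related H2B genes and cannot be assigned to 1 of them. Among the 3 H2B genes read by probe sets without a suffix, H2BC12 rose in all 4 knockdowns, H2BC4 rose with WT (0.24) and ATPdead (0.23), and H2BC15 was called in none. H2BC4 read 109, 102 and 110 with shLuc GFP and 97.5, 101 and 101 with S2sh7 GFP, a difference of -0.10 log2 that was not called. H2BC21, read by an _s_at probe set, rose with WT only, by 0.22 log2.

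**Figure D2:**
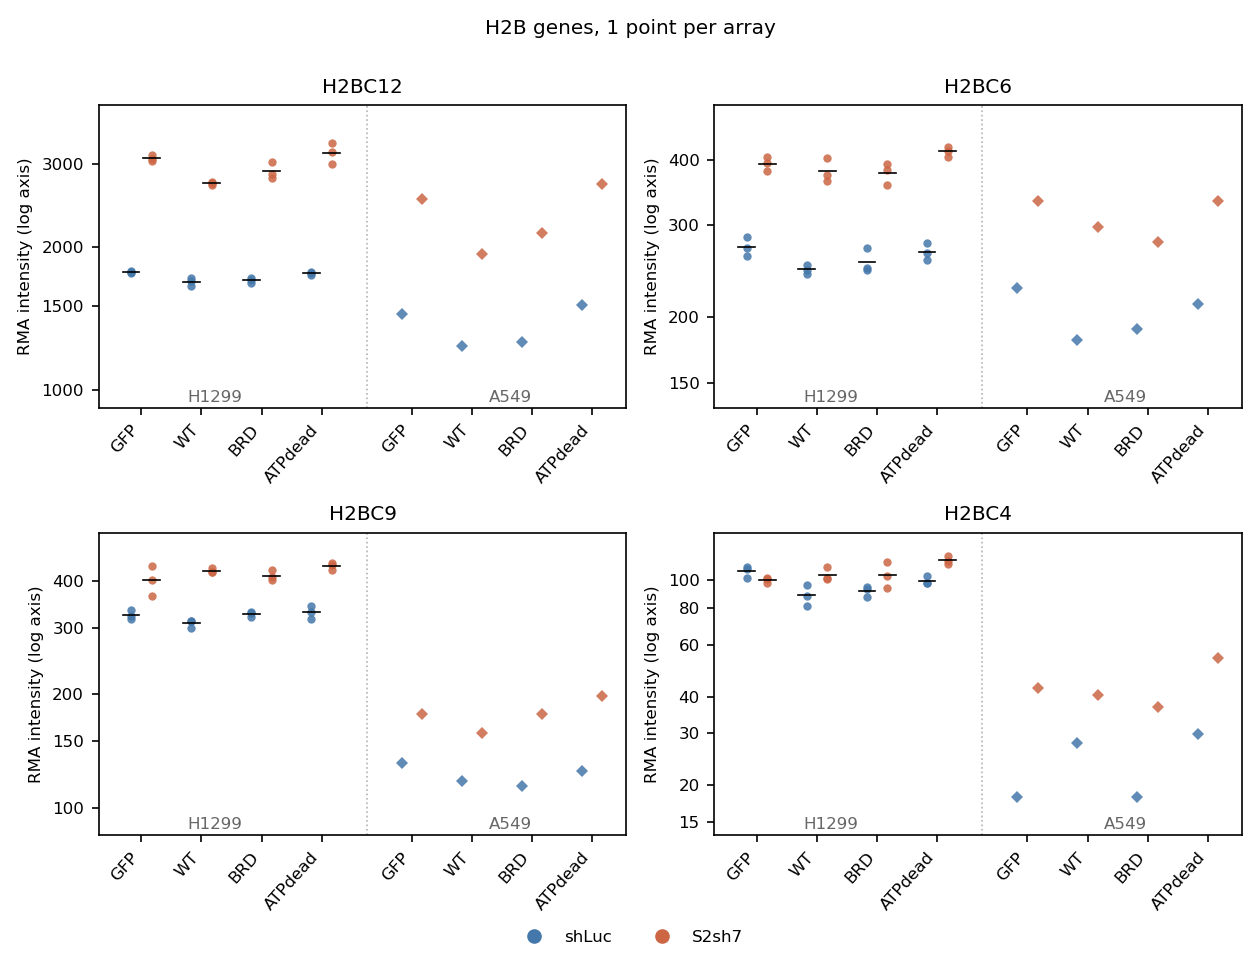
RMA intensity (log axis) of 4 H2B genes on each array, by cDNA on the horizontal axis, for H1299 (circles, 3 arrays a group, bar at the mean) and A549 (diamonds, 1 array a group); blue is shLuc and orange S2sh7. H2BC12, H2BC6 and H2BC9 are higher with S2sh7 in all 8 pairs, while H2BC4 lies close together in H1299 and apart in A549, where shLuc reads 18.2 to 29.9 and S2sh7 36.8 to 54.3.

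H1 genes. The linker histones H1-2, H1-3, H1-4 and H1-5 bind the DNA that enters and leaves a nucleosome. H1-4 and H1-5 had the largest falls of the 30 genes in the GFP, WT and ATPdead knockdowns of H1299. The H1-4 promoter, chr6:26156079-26156378 on the plus strand in the same RefSeq build, is shown beside the H2B ones because this gene moved the opposite way; capitals mark the same 3 motifs.
H1-4: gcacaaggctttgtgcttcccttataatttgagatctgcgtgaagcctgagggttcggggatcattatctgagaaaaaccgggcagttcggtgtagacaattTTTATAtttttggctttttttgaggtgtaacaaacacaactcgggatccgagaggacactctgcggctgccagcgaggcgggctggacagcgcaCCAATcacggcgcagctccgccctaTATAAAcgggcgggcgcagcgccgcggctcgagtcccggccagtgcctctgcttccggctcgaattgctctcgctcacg
It holds 1 CCAAT and 2 TATAAA matches and no octamer.

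H1-4 read 82.3, 72.9 and 60.5 with shLuc GFP and 39.0, 39.2 and 35.9 with S2sh7 GFP in H1299. With WT it read 63.2, 61.3 and 66.4 against 40.5, 34.7 and 28.2, and with BRD 58.1, 61.0 and 62.6 against 33.3, 30.8 and 30.6. With ATPdead it read 46.3, 50.0 and 45.8 against 29.7, 29.2 and 26.7. In each pair all S2sh7 arrays were below all shLuc arrays, and 6 of the 12 were below the log2 minimum. The log2 differences were -0.91 with GFP (SE 0.10, limma adjusted p = 1.268e-06), -0.90 with WT, -0.94 with BRD and -0.73 with ATPdead.

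H1-5 read 63.4, 61.2 and 57.9 with shLuc GFP and 31.8, 31.1 and 32.8 with S2sh7 GFP, a difference of -0.93 log2 (SE 0.13, adjusted p = 1.144e-05, limma). Its differences with WT, BRD and ATPdead were -0.79, -0.61 and -0.55. Over the other H1299 groups it lay between 42.6 and 65.6 with shLuc and between 27.4 and 40.0 with S2sh7, so the arrays of the 2 hairpins did not overlap. Of the 12 S2sh7 arrays 9 were below the log2 minimum. H1-3 fell with GFP (-0.35), BRD (-0.63) and ATPdead (-0.31), and the arrays of the ATPdead pair overlapped. H1-2 rose with ATPdead only among the H1299 knockdowns, by 0.13. H1-10, H1-6, H1-7 and H1-10-AS1 were called in none of the 4.

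H2A genes. H2A forms a dimer with H2B, and many H2A and H2B genes are divergent neighbours that share 1 promoter. H2AC6 and H2BC4 are such a pair: their RefSeq windows share 255 bases. The window of H2AC6, chr6:26123922-26124221 on the plus strand, is shown because the 2 genes, which share it, differed in their calls: H2BC4 rose and H2AC6 fell with WT and ATPdead, while with GFP H2AC6 fell and H2BC4 (-0.10) was not called; capitals mark the same motifs.
H2AC6: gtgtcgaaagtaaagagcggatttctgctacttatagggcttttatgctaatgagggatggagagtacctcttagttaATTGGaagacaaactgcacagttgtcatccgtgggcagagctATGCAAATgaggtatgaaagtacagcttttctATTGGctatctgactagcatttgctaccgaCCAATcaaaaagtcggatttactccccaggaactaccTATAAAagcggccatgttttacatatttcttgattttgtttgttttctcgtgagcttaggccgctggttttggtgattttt
It holds 1 octamer, 3 CCAAT and 1 TATAAA match.

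H2AC6 read 420, 402 and 421 with shLuc GFP and 317, 323 and 331 with S2sh7 GFP in H1299, a difference of -0.36 log2 (SE 0.04, limma adjusted p = 3.754e-07). With WT it read 387, 400 and 406 against 375, 373 and 355, a smaller difference of -0.11. With BRD and ATPdead the differences were -0.15 in both. The arrays did not overlap in any pair. The probe set of H2AC6 carries the suffix _s_at, so its signal can hold RNA of related H2A genes. This limit holds also where H2AC6 is set beside H2BC4. The difference of the knockdown effect between WT and GFP was itself called for H2AC6: 0.24 log2 (SE 0.05, adjusted p = 0.01829), the only member called in that comparison (3.33%, background 2.28%). It missed the threshold without any 1 of 3 arrays (shLuc GFP replicate 1, shLuc WT replicate 1 or S2sh7 GFP replicate 1), with adjusted p of 0.05397 to 0.05751, and when only the arrays compared were fitted (0.05327).

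H2AC14 read 196, 184 and 175 with shLuc GFP and 144, 161 and 158 with S2sh7 GFP. Its differences over the 4 knockdowns were -0.26, -0.21, -0.29 and -0.26 log2. The H2AC14 probe set carries the suffix _x_at and has the same limit. H2AC4 fell with GFP only (-0.23). H2AC8 went the other way and rose with GFP (0.35), WT (0.25) and ATPdead (0.34). H2AC17, H2AC25 and the pseudogene H2AC5P were called in none of the 4.

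H3 and H4 genes and shared probe sets. H3 and H4 form the tetramer at the core of the nucleosome, and their genes are the hardest to separate on this array. There were 20 probe sets that name several genes and at least 1 member; 15 were bright enough to be tested, and the 20 together name 40 members. Tested over 32893 probe sets, 3 of the 15 rose and 7 fell with GFP in H1299 (66.7%, background 24.6% of all probe sets). With WT 3 rose and 6 fell (60.0%, background 20.6%), with BRD 2 and 9 (73.3%, background 19.5%), and with ATPdead 4 and 7 (73.3%, background 23.0%). Several of these probe sets read the same genes and are not independent.

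The probe set 214472_at, which names 10 H3C genes and H2AC7, read 37.9, 34.8 and 37.8 with shLuc GFP and 19.1, 16.6 and 18.9 with S2sh7 GFP. Its difference was -1.02 log2 with GFP (SE 0.08, limma adjusted p = 2.127e-08), -0.41 with WT, -0.48 with BRD and -0.61 with ATPdead. The effect with WT differed from that with GFP by 0.61 (adjusted p = 0.01352). All 12 of its S2sh7 arrays were below the log2 minimum, so the size of these falls is uncertain. A second H3 probe set, 206110_at, names the same 10 H3C genes and rose with WT (0.28) and ATPdead (0.26). Another, 214522_x_at, names H3C4 and H2AC7 and fell in all 4 knockdowns, by differences of -0.31, -0.25, -0.28 and -0.21; the ATPdead call was lost without shLuc replicate 3 or S2sh7 replicate 1 or 3. H3C3, H3C6 and H3C8, each read by a probe set of its own, had differences of -0.14 to 0.17 log2 over the 4 knockdowns, none called. H3C8 alone of these was over the log2 minimum in H1299, and its probe set carries the suffix _x_at.

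Most H4 genes encode one and the same protein. The probe set 207046_at names 14 H4C genes and read 54.1, 50.4 and 57.6 with shLuc GFP and 38.3, 32.2 and 30.3 with S2sh7 GFP. It fell in all 4 knockdowns, with differences of -0.69, -0.35, -0.51 and -0.56 log2. A second probe set, 205967_at, names the same 14 genes and read 5187, 5281 and 5168 against 5313, 5430 and 5808 with GFP. It was lower with BRD only (-0.20), and 208580_x_at, another for these genes, was lower with BRD (-0.20) and ATPdead (-0.19). Probe sets with the same gene list thus gave different answers, and 1 value cannot stand for the H4 genes.

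The H2A probe sets 214290_s_at and 218280_x_at name H2AC18 and H2AC19 and fell in all 4 knockdowns, with differences of -0.37 and -0.36 with GFP. Of 2 probe sets that name the same 6 H2A genes, H2AC11 to H2AC13 and H2AC15 to H2AC17, 214542_x_at fell in all 4 (-0.40 with GFP) and 207156_at rose with ATPdead only (0.30). The H2B probe sets 208490_x_at and 208523_x_at name H2BC4, H2BC6, H2BC7, H2BC8 and H2BC10 and rose in all 4, with differences of 0.44 and 0.39 with GFP. The H2B probe set 210387_at, which names H2BC8 and H2BC11 and has no such suffix, went the other way. It read 53.4, 55.0 and 52.1 with shLuc GFP and 41.9, 43.2 and 41.0 with S2sh7 GFP, and fell with GFP (-0.35, limma adjusted p = 0.002943) and BRD (-0.34). For the same 2 genes 215779_s_at rose with GFP only (0.22). A probe set that names the same 5 genes without the _x_at suffix, 214455_at, was called in none of the 4 H1299 knockdowns. It read 125, 121 and 109 with shLuc GFP and 101, 122 and 115 with S2sh7 GFP.

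H4C8 is the H4 gene with a probe set of its own that moved most in A549 (its values follow), and its window, chr6:26285485-26285784 on the minus strand, holds none of the 3 motifs.
H4C8: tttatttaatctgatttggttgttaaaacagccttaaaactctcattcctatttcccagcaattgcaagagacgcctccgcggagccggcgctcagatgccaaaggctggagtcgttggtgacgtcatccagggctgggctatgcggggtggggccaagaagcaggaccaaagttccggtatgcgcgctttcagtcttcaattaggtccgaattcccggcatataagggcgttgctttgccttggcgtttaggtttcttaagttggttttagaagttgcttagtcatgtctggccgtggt
In H1299 it read 49.0, 51.8 and 44.9 with shLuc GFP and 42.4, 38.9 and 44.1 with S2sh7 GFP. With WT it read 46.8, 54.2 and 47.9 against 45.2, 43.7 and 49.1, with BRD 38.6, 38.2 and 37.5 against 41.2, 42.1 and 38.7, and with ATPdead 46.4, 43.7 and 45.0 against 50.2, 44.0 and 46.1. The arrays overlapped with WT and ATPdead. It fell with GFP (-0.22, SE 0.07, limma adjusted p = 0.01668), and was not called in the other 3 knockdowns. Its second probe set differed: it was not called with GFP (-0.18, adjusted p = 0.3014) and fell with BRD (-0.36, adjusted p = 0.0343), where the first had a difference of 0.09. Among the other H4 genes, H4C9 rose with BRD (0.22), and H4C5 and H4C11 were called in none.

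**Figure D3:**
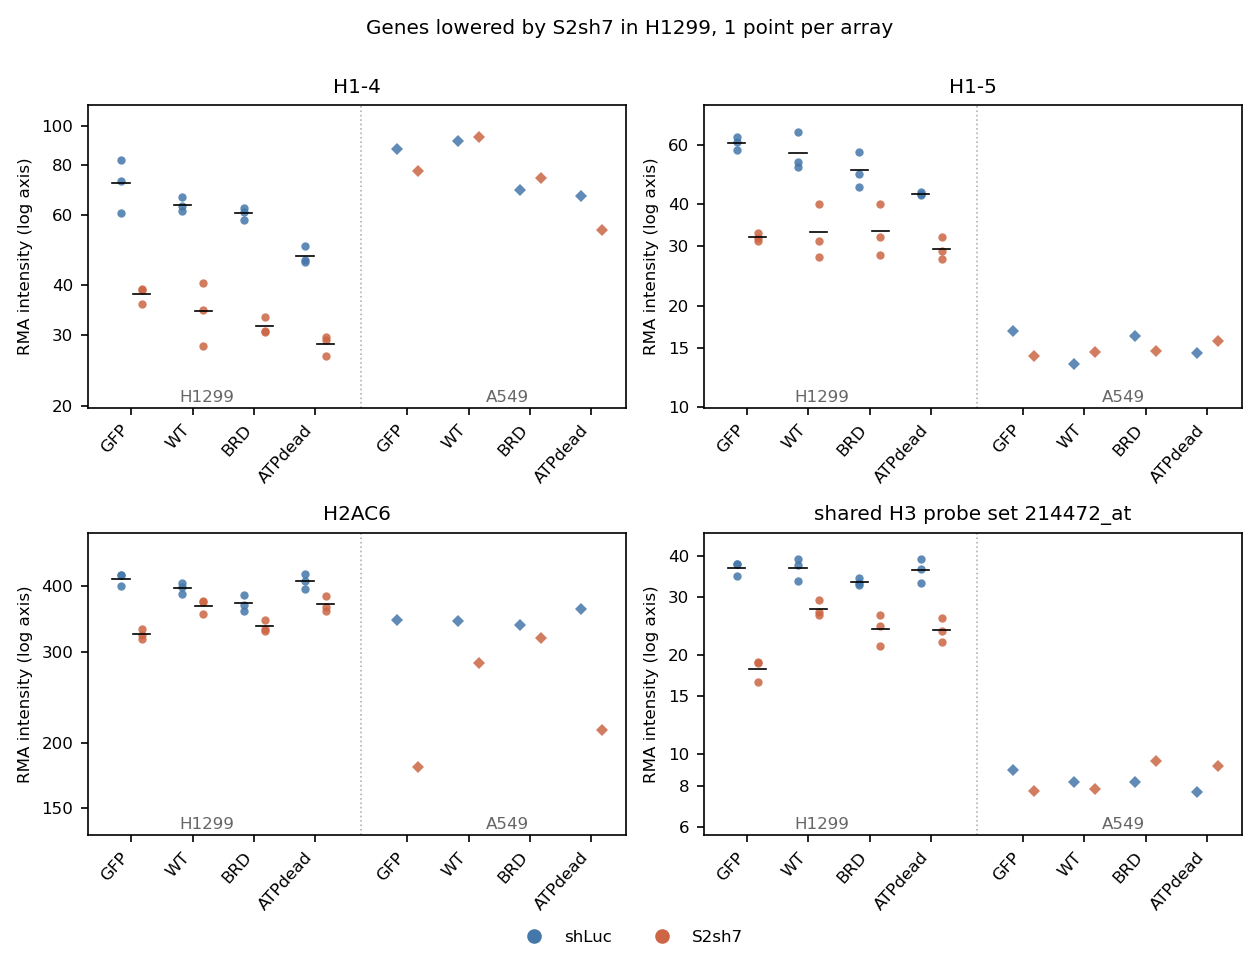
RMA intensity (log axis) of H1-4, H1-5, H2AC6 and the shared H3 probe set 214472_at on each array, by cDNA, for H1299 (circles, 3 arrays a group, bar at the mean) and A549 (diamonds, 1 array a group); blue is shLuc and orange S2sh7. S2sh7 is lower in all 4 H1299 pairs; in A549 H1-4 has no common direction, H1-5 and the H3 probe set are dim, and H2AC6 is lowest with GFP (180) and ATPdead (212).

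The calls of H2BC12, H2BC12L, H2BC6, H2BC9, H1-4, H1-5 and H2AC14 in the 4 H1299 knockdowns, and that of H2AC6 with GFP, held with each array left out in turn. Smaller ones rested on single arrays. H1-3 with GFP was lost without shLuc replicate 3 (adjusted p = 0.08045) or S2sh7 replicate 1, and with ATPdead without any shLuc array or without S2sh7 replicate 2 (-0.13, adjusted p = 0.2778). H2AC6 with WT was lost without shLuc replicate 2 or 3 or S2sh7 replicate 3, and with centred arrays (adjusted p = 0.0783). H4C8 with GFP was lost without shLuc replicate 1 or 2 or S2sh7 replicate 2, and over the mean of its probe sets (-0.20, adjusted p = 0.05393). H2BC4 with WT was lost without replicate 2 of either hairpin, and H1-2 with ATPdead without shLuc replicate 1 or 2 or S2sh7 replicate 1.

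Among the remaining calls, H2AC4 with GFP was lost without shLuc replicate 1 or 2 or S2sh7 replicate 2 or 3. H2AC8 with WT was lost without shLuc replicate 2 or 3 or S2sh7 replicate 1 or 2, and H2BC21 with WT without replicate 1 of either hairpin. H2BC5 and H4C9 with BRD were lost without shLuc replicate 2 or 3 or S2sh7 replicate 2, and H2BC5 also without S2sh7 replicate 3. Of the shared probe sets, 208580_x_at with BRD and ATPdead, 206110_at with WT and ATPdead and 205967_at with BRD were lost without at least 1 array, the last without S2sh7 BRD replicate 2 (-0.17, limma adjusted p = 0.0527).

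cDNAs in H1299. Apart from H2AC6 with WT, no member's knockdown effect was called as different from that with GFP: 0 of 30 with BRD (limma; 4 at an unadjusted p under 0.05; background 0.558%) and 0 with ATPdead (6 unadjusted; background 0.0612%). Under S2sh7, ATPdead against WT gave 2 members higher and none lower (6.67%, background 3.02%), H2BC12 by 0.21 log2 (SE 0.03, limma adjusted p = 0.0007937) and H2BC12L by 0.14. Neither was called when only those arrays were fitted (adjusted p = 0.1781 and 0.3115). The H2BC12L call was also lost without 1 of 4 arrays, S2sh7 WT replicates 2 and 3 and S2sh7 ATPdead replicates 1 and 3. BRD against WT gave 0 (4 unadjusted; background 0.0612%).

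Among the 15 shared probe sets, the difference between the WT and GFP knockdown effects was called for 214472_at only (6.67%, background 1.19% of probe sets; 5 unadjusted). For BRD and ATPdead limma called 0 (4 and 7 unadjusted; background 0.274% and 0.0182%). Under S2sh7, 207046_at was lower with ATPdead than with WT, by -0.32 log2 (adjusted p = 0.0385; 6.67%, background 1.69%), a call lost without any S2sh7 WT array and without S2sh7 ATPdead replicate 2 or 3. BRD against WT gave 0 (5 unadjusted; background 0.0456%). Under shLuc, WT, BRD and ATPdead against GFP gave 0 each (3, 3 and 4 unadjusted; background 1.05%, 0.526% and 0.0426%).

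Under shLuc the cDNAs were compared with GFP; the 3 comparisons share the GFP arrays. With WT, H2BC15, below the log2 minimum on every H1299 array, was called higher (0.23 log2), and H1-2 (-0.15) and H2BC4 (-0.27) lower (10.0% called, background 2.74%). With BRD, H4C8 (-0.35) and H2AC6 (-0.16) were lower (6.67%, background 1.37%). With ATPdead, H1-4 (-0.59) and H1-2 (-0.21) were lower (6.67%, background 0.122%). H1-4 read 46.3, 50.0 and 45.8 with ATPdead against 82.3, 72.9 and 60.5 with GFP, without overlap. None of these 7 calls held when only the arrays compared were fitted, and leaving out shLuc GFP replicate 1 left 0 called in each of the 3 comparisons.

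Knockdown in A549. With 1 array per group, the A549 model added a cDNA effect and a hairpin effect, so the error is the departure from that fit on 3 degrees of freedom. There 6 of the 30 members rose and none fell (20.0% called, background 21.1%). They were H4C8 (1.22 log2, SE 0.28, limma adjusted p = 0.03982), H2BC4 (0.91), H2BC12L (0.82), H2BC12 (0.76), H2BC6 (0.62) and H2BC9 (0.54). The H2B family again held most of the called genes, 5 of its 8, with a median of 0.58 log2, while the called share of all members was near the background. H2BC12L, H2BC6 and H2BC9 are read by _x_at probe sets that can hold RNA of related H2B genes. The 5 calls can therefore not be counted as 5 separate genes. The calls rest on few arrays: without the ATPdead pair 0 members were called, and without the GFP pair 2, and the H4C8 call was lost without any 1 of the 4 pairs.

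H2BC12 went from 1445 to 2531 with GFP, from 1238 to 1931 with WT, from 1263 to 2144 with BRD and from 1514 to 2714 with ATPdead, so the lowest S2sh7 array was above the highest shLuc array. H2BC6 went from 227 to 333, from 181 to 298, from 190 to 278 and from 212 to 334 in the same order. H2BC9 went from 131 to 177, from 118 to 158, from 114 to 178 and from 125 to 198. In these 3 genes the groups did not overlap. H2BC4 was dim and went from 18.2 to 42.8, from 27.8 to 40.6, from 18.2 to 36.8 and from 29.9 to 54.3; its 4 shLuc arrays were below the log2 minimum, and its fold is likewise not exact. The shared H2B probe set 214455_at was called higher (limma adjusted p = 0.005575): it read 10.5 to 19.1 with shLuc, below the log2 minimum on all 4 arrays, and 34.1 to 64.7 with S2sh7, so its fold is not exact. Of the 15 shared probe sets tested, 3 rose and none fell (20.0%, background 20.1%).

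Counted without a test, 11 members were higher with S2sh7 in all 4 A549 pairs (36.7%, against 27.2% of all genes tested) and 3 were lower in all 4 (10.0%, against 22.9%). The 11 were the 6 called genes and H1-2, H1-6, H3C3, H3C6 and H3C8. Of these, H1-6 (40.3 to 46.3), H3C3 (31.3 to 37.85) and H3C6 (42.4 to 58.0) lay near or below the A549 array medians of 40.1 to 41.2. H3C3 was below the log2 minimum on 2 shLuc arrays, and the H1-6 differences were only 0.01 to 0.12 log2. The direction of these dim genes is therefore uncertain. The 3 lower ones were H2AC6, H1-10 and H4C11. H1-4 and H1-5, which fell in H1299, had no common direction in A549: H1-4 differed by -0.18 log2 with GFP, 0.03 with WT, 0.10 with BRD and -0.28 with ATPdead, and H1-5 was dim at 13.4 to 16.9. The difference between the lines was not tested.

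ATPase-competent SMARCA4 in A549. In several members the pairs split by cDNA, with GFP and ATPdead on one side and WT and BRD on the other. H4C8 went from 59.3 to 212 with GFP and from 57.1 to 209.5 with ATPdead, but from 44.2 to 62.8 with WT and from 42.3 to 66.9 with BRD. Its second probe set went from 50.1 to 162 with GFP, 45.95 to 145 with ATPdead, 46.3 to 72.0 with WT and 44.0 to 66.3 with BRD. On both probe sets the 2 S2sh7 arrays without an ATPase-competent SMARCA4 were thus higher than all others. With shLuc the first probe set of H4C8 read 42.3 to 59.3, over the log2 minimum but not far above the A549 array medians of 40.1 to 41.2. The folds of H4C8 are therefore not exact.

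H1-2 went from 435 to 658 with GFP and from 390 to 825 with ATPdead, against 408 to 479 with WT and 405 to 455 with BRD. H2AC6 went from 345 to 180 and from 362 to 212, against 343 to 285 and 338 to 319. H1-10 went from 643 to 421 and from 635 to 420.5, against 628 to 597 and 679 to 640. H1-2 was thus higher, and H2AC6 and H1-10 lower, on the 2 S2sh7 arrays without ATPase-competent SMARCA4 than on all other A549 arrays. H4C11 went from 95.8 to 65.1 and from 93.8 to 60.2, against 101 to 89.1 and 93.8 to 82.1. H2AC6 and H1-10 are read by _s_at probe sets and H4C11 by an _x_at probe set, so related transcripts can add to each. The shared H4 probe set 205967_at went from 5612 to 3874 with GFP and 5503 to 3609 with ATPdead, but from 5540 to 6276 with WT and 5199 to 6290 with BRD.

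**Figure D4:**
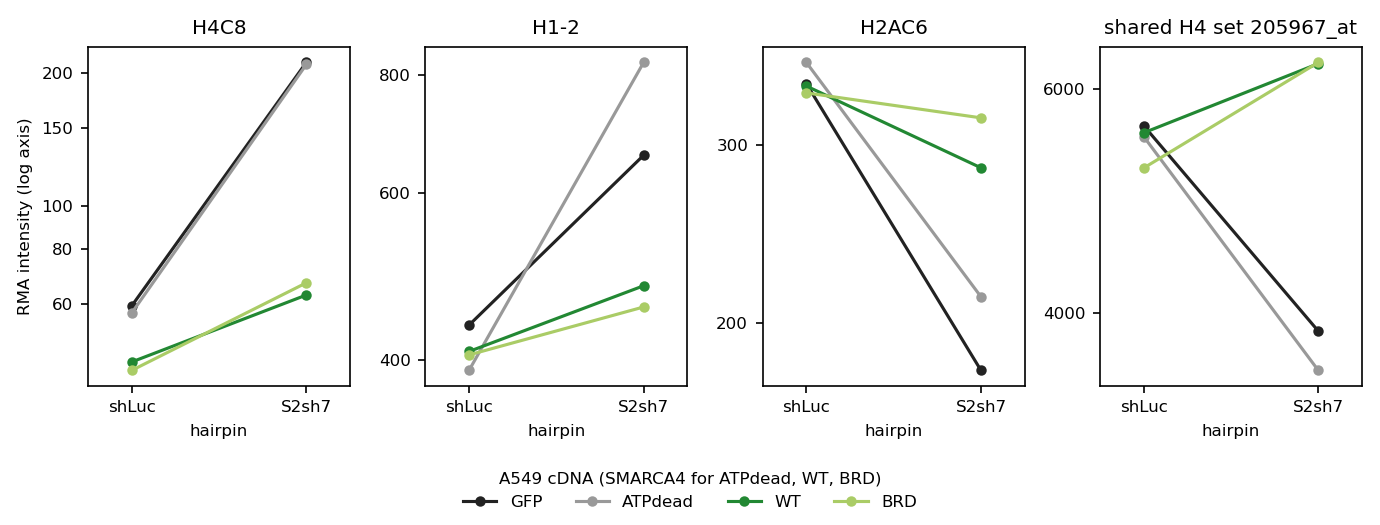
RMA intensity (log axis) of H4C8, H1-2, H2AC6 and the shared H4 probe set 205967_at on the 8 A549 arrays, shLuc at left and S2sh7 at right, 1 line per cDNA (GFP black, ATPdead grey, WT dark green, BRD light green; 1 array a point). In each panel the GFP and ATPdead lines end on one side and the WT and BRD lines on the other. For H1-2 the GFP and ATPdead lines cross and end apart, at 658 and 825. For 205967_at GFP and ATPdead end at 3874 and 3609, and WT and BRD at 6276 and 6290.

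This split was described after the values were seen, with a model that set WT and BRD against GFP and ATPdead, crossed with the hairpin; its error is the spread between the 2 cDNAs of a class, on 4 degrees of freedom. The 2 cDNAs of a class are not replicates of each other. The knockdown effect differed between the classes in 5 members (16.7%, background 23.9%), 3 higher and 2 lower with ATPase-competent SMARCA4: H4C8 by -1.27 log2 (SE 0.09, limma adjusted p = 0.0001117), H1-2 by -0.64, H2AC6 by 0.68, H1-10 by 0.52 and H4C11 by 0.41. Leaving out each of the 8 arrays in turn, H4C8, H2AC6 and H1-10 stayed past the threshold and H1-2 missed it in 4 of 8 and H4C11 in 5. Without ATPase-competent SMARCA4, 7 members rose and 4 fell with S2sh7 (36.7%, background 49.8%), and with it 6 rose and none fell (20.0%, background 21.3%). Of the 15 shared probe sets, 4 rose and 3 fell without it (46.7%, background 45.4%), and 3 rose and none fell with it (20.0%, background 17.0%).

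H2B genes gave another picture. H2BC12 rose by 0.83 log2 without and by 0.70 with ATPase-competent SMARCA4 (difference -0.12, SE 0.10, limma adjusted p = 0.4414), and no H2B gene was called in the comparison of the classes. The shared H4 probe sets that were called are 205967_at by 0.80 and 207046_at by 0.43, the second of which missed the threshold without any 1 of 7 arrays, S2sh7 GFP being the exception (2 of 15, 13.3%, background 19.4%). In the additive fit, ATPase-competent SMARCA4 against the other cDNAs gave 0 called members (limma; 6 at an unadjusted p under 0.05), and 0 called genes of 14695. That fit counts any dependence of the hairpin effect on the cDNA as error. The class model called such a dependence in 23.9% of all genes. The 0 calls therefore cannot show that SMARCA4 left these genes unchanged.

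Levels in the 2 lines. Relative to the array median, H1-5 (2.04 log2), H2BC4 (2.28) and H2AC8 (2.65) were higher in H1299 than in A549, with no overlap between the arrays of the lines. H1-5 ranged from 27.4 to 65.6 in H1299 and from 13.4 to 16.9 in A549. On the same scale H2BC12L, H2BC9, H2BC6, H2AC6, H3C8, H1-10, H2AC17 and H4C11 were also higher in H1299 without overlap, by 0.63 to 1.92. The array medians were lower in H1299 (26.4 to 27.3) than in A549 (40.1 to 41.2), which widens these gaps. In unscaled intensity H2BC9 alone of these genes did not overlap between the lines. Unscaled medians in H1299 and A549 were 86.5 and 91.4 for H4C11, 620 and 632 for H1-10, and 35.1 and 33.4 for H2AC17. In A549 H1-5 and H2AC8 were below the log2 minimum on all 8 arrays and H2BC4 on the 4 shLuc arrays, so the size of their gaps is not exact. The same holds for the shared probe sets 210387_at, 214472_at and 214522_x_at, read at 8.4 to 11.6, 7.7 to 9.5 and 24.5 to 31.8 in A549. These values are a description, since line and batch cannot be told apart. The share of all genes tested without overlap between the lines is not given here. Lack of overlap can therefore not be read as particular to the histone genes.

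Promoter windows. RefSeq windows were matched by symbol for 68 of the 93 members, 27 of them tested. The octamer ATTTGCAT, searched on both strands as were the others, was in 14 of 19 H2B genes (73.7%) and 11 of 16 H2A genes (68.8%), against 2.19% of 27305 genes. It was in 1 of 11 H3 genes, 0 of 9 H1 genes and 0 of 13 H4 genes. CCAAT was in 56 of the 68 (82.4%, against 39.7%), but in 3 of 13 H4 genes. TATAAA was in 44 (64.7%, against 14.0%). Octamer windows were found in genes that rose in H1299 (H2BC12, H2BC6, H2BC9, H2AC8) and in genes that fell (H2AC6, H2AC14), so it was seen in both directions. A match describes the letters only.

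Genes that work with the histones. In lists of related genes, which describe the setting and were chosen with earlier results known, 0 of the 10 tested variant histone genes of 17 were called by limma in the H1299 GFP knockdown (3 at an unadjusted p under 0.05); the others are read beside the 29.7% background. Of 32 genes of histone RNA synthesis and 3′ end processing, 3 rose and 3 fell, with a median of -0.01 log2. CCNE2 (0.25) and CCNE1 (0.28), the E-type cyclins that drive entry into S phase, and NCBP2 (0.14), of the cap-binding complex, rose. Of 30 histone chaperones and importers, 9 rose and 3 fell: NAP1L1 (0.42), a chaperone of H2A and H2B, and RBBP4 (0.31), a histone-binding subunit of several complexes, rose, and UBN1 (-0.60), of the HIRA chaperone complex, fell. Of 42 genes of S phase and DNA replication, 8 rose and 3 fell, with a median of 0.02 log2. MCM6 (0.29), of the replicative helicase, RPA1 (0.20), which coats single-stranded DNA, and RRM2 (0.19), of ribonucleotide reductase, rose.

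Of 22 genes of cell cycle exit and CDK inhibition, 6 rose and 5 fell in that knockdown. Those with the smallest adjusted p fell: GADD45A (-1.34), a stress-induced growth arrest gene, CCND1 (-0.41), cyclin D1, and BTG1 (-0.26), an antiproliferative gene. RBL2 (0.31) and CDKN1A (0.19) were among those that rose, so the list had no common direction. In the A549 knockdown (background 21.1%), limma called 0 variant histone genes (1 unadjusted), and 7 RNA processing genes rose and 1 fell. LSM10 (0.45), of the U7 snRNP that cleaves histone pre-mRNA, SYMPK (0.35), a scaffold of the cleavage complex, and ERI1 (0.38), an exonuclease of the histone mRNA end, rose. Of the chaperones 5 rose and none fell, with NAP1L1 (0.54), SET (0.42) and DAXX (0.46) among them. Of the 42 replication genes 2 rose and 2 fell (9.52%), RPA2 (0.41), RFC3 (-0.56) and GINS4 (0.25) with the smallest adjusted p. Their median was -0.12 log2, and 30 of the 42 differences were negative. Of the cell cycle exit genes 4 rose and 2 fell: E2F5 (0.51) and GADD45A (1.39) rose and BTG1 (-1.21) fell. The part of proliferation in the histone changes was not tested.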

How the data were processed

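Each deposited value is an intensity that the authors computed with RMA for 1 probe set, on a linear scale; the submitters' processing notes name RMA and limma, and their versions are not given in the sources used here. The design had assumed log2 values, so the deposited intensity was turned into log2 with no pseudocount. RMA background correction and summarisation compress differences of dim probe sets. The array holds 54675 probe sets: 41097 name a single gene, 1801 name several, and 11777 name none. Old symbols were updated through names of assembly GRCh38.p14, used for names only. A gene was represented by its brightest probe set (mean log2 over all 32 arrays), and entered the tests if log2 exceeded 5 on 3 or more arrays. Each line was fitted alone in limma 3.58.1 (R 4.3.3, data.table package version 1.17.8), with 1 mean per group in H1299 (16 residual degrees of freedom) and additive cDNA and hairpin terms in A549 (3), and Benjamini-Hochberg adjustment over all genes, called at 0.05. Shared probe sets were adjusted over all probe sets. The limited number of arrays sets the precision. The fits were tested on simulated data. Plots were made in matplotlib 3.10.9 under Python 3.11.15.

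The members and lists were chosen with earlier results of these data known. Values on every array are given for H1-4, H2BC12, H4C8 and up to 8 members with the smallest adjusted p over the H1299 knockdowns; effect sizes for up to 6 rises and 6 falls per comparison, for members with 1 direction in all A549 pairs and for up to 3 called genes per list. Other genes named are members called or not called, or were chosen after their values were seen. Alternatives were the mean of a gene's probe sets, no _x_at or _s_at probe sets, each probe set, no filter, a filter of log2 over 6, quantile normalization, centred arrays, fitting only the arrays compared, array weights, robust moderation with a trend, a replicate block and leaving out arrays. The A549 model with ATPase-competent SMARCA4 as a class and a filter within each line were added after seeing the data.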

Additional observations from a re-analysis of the deposited data

Results flagged for a closer look

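Each result here is a difference between 2 knockdown effects that was itself called by limma. In H1299, where the effect with WT was set against that with GFP, H2AC6 differed by 0.24 log2 and the shared H3 probe set 214472_at by 0.61. In A549 the model chosen after seeing the data set ATPase-competent SMARCA4 (WT and BRD) against GFP and ATPdead. There the effect differed by -1.27 log2 in H4C8, -0.64 in H1-2, 0.68 in H2AC6, 0.52 in H1-10 and 0.41 in H4C11. For the shared H4 probe sets the differences were 0.80 (205967_at) and 0.43 (207046_at). H2AC6 is on the list in both lines, its fall being smaller with WT in H1299 and with WT and BRD in A549. In H1299 its fall was also smaller with BRD and with ATPdead (-0.15 in both) than with GFP, but those differences were not called. The fall of 214472_at was likewise smaller than with GFP by 0.54 with BRD and 0.41 with ATPdead, not called. The H1299 differences are thus not particular to WT. The overlap between the lines was not tested, and the _s_at probe set of H2AC6 can also read related transcripts.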

How the results depend on the processing

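No called member or shared probe set changed direction under any alternative. For called members, 765 of 809 values with all arrays kept their side of the threshold and 44 did not; with arrays left out it was 451 of 554, and 103 did not. For shared probe sets these were 383 of 401 and 335 of 372. Scalings moved the median of all genes by less than the 0.1 log2 limit set for reporting a shift. H2AC6, read by an _s_at probe set, was not tested where such probe sets were left out, so its WT interaction call could not recur. Counts of called members that moved by over 1.5 times were as follows. Without _x_at and _s_at probe sets (20 members) the H1299 knockdowns gave 7 (GFP), 5 (WT), 5 (BRD) and 7 (ATPdead), the WT interaction 0, ATPdead against WT 1, and each cDNA against GFP 1; A549 gave 3 (additive knockdown), 4 (without ATPase-competent SMARCA4), 2 (with it) and 2 (interaction). Taking each of 51 probe sets, the counts were 23, 20, 23 and 25 in the H1299 knockdowns, 2 for the WT interaction, 1 for each cDNA against GFP, and 10, 20, 11 and 9 in A549. The mean of probe sets gave 1 for BRD against GFP and 8 for the A549 interaction. No filter gave 1, 1 and 0 for WT, BRD and ATPdead against GFP. The WT interaction was 2 with a filter of log2 over 6, centred arrays, trend and robust, array weights, or the filter within each line, chosen after seeing the data; the BRD interaction was 1 with quantile normalization and with trend and robust. Centred arrays gave 1 for each cDNA against GFP. Fitting only the arrays compared gave 0 for these and for ATPdead against WT. A mean difference over 2-fold with 1 direction in all 4 A549 pairs gave 1, H4C8. The cause of these changes was not tested, beyond the fewer or more features tested.

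Leaving out arrays gave 11 to 14 called (knockdown with GFP), 8 to 10 (WT), 9 to 13 (BRD) and 11 to 13 (ATPdead), 0 to 2 for the WT interaction, 1 to 3 for ATPdead against WT, 0 to 2 for WT or BRD against GFP and 0 to 1 for ATPdead against GFP. In A549 it gave 0 to 5 (additive knockdown, 2 without the GFP pair and 0 without the ATPdead pair), 9 to 12, 5 to 7 and 3 to 5 (3 without shLuc BRD). With a replicate block the H1299 knockdowns gave 13, 11, 10 and 13 called members; the deviations of 84 same-numbered pairs correlated at -0.285 to 0.281 (median -0.007, 12 above 0.1), so the numbers were not taken to pair the samples. The block moved no count by over 1.5 times. The array number limits precision, most in A549 with 1 array per group.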
